A study of Mus musculus with 10 samples.

Results

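The splicing factor and hnRNP genes described here are the genes whose symbol starts with Srsf and a digit, Hnrnp, Sf3a or Sf3b and a digit, or Prpf and a digit in the deposited promoter peak tables of RNA polymerase II. They number 48 of the 10419 genes that have a promoter peak in at least 1 library: 10 SR proteins, 19 hnRNPs, 8 subunits of the SF3A and SF3B complexes and 11 PRPF proteins. Choice by name used no measured value beyond the presence of a peak in some library. Polymerase was mapped by chromatin immunoprecipitation and sequencing (ChIP-seq) with the antibody 8WG16 (ab817), raised against RNA Pol II, in primary Th1 cells of the mouse strain Balb/c DO11.10. All groups share the same preparation: priming of CD4+ T cells in Th1 conditions, expansion with an analogue of interleukin 2, a day without it, and fixation for 10 min in 1% formaldehyde. The 3 groups of 2 libraries are cells that were not restimulated (NR), cells restimulated with plate-bound anti-CD3 (5 µg/ml) and soluble anti-CD28 (2.5 µg/ml) for 30 min, and cells restimulated in the same way for 2 h. Whether replicates are separate cultures or animals is not stated in the labels, and the p-values therefore describe the spread among these 6 libraries alone, and that spread may be technical. Libraries of histone H3 trimethylated at lysine 36 and of input DNA were not analysed here. The animals' age was not given in the sources used here.

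Splicing removes introns from a transcript while polymerase is still copying the gene. SR proteins bind exons and recruit the splicing machinery, whereas hnRNPs coat nascent RNA and often act against the use of a splice site. SF3A and SF3B are parts of the U2 particle, which holds the branch point, and most PRPF proteins belong to the U4/U6.U5 particle, the U1 particle or the complex that activates the spliceosome. In T cells these proteins are known for exon choice in transcripts such as that of the phosphatase CD45, on which hnRNP L and its relative hnRNP LL act.

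The genes' promoters are shown first, because the deposited tables list peaks around transcription starts. RefSeq (GRCm38.p6, which has the primary coordinates of mm10) gave a window of 250 bases before to 50 bases after the start for 42 of the 48 members. Members without a window include Hnrnpll, Hnrnpul2, Prpf18, Sf3b4 and Sf3b5. The 250 bases before the start are printed 5′ to 3′ on the gene's strand for Srsf2 (chr11:116853095-116853344, minus strand) and Srsf3 (chr17:29032410-29032659, plus strand), the SR genes with the highest values at 2 h. They are printed too for Hnrnpk (chr13:58402118-58402367, minus strand), a member with a small difference at 2 h against NR, though not in the other comparisons. The last are Hnrnpa2b1 (chr6:51469846-51470095, minus strand), whose peak the tables give to a neighbour, and Prpf6 (chr2:181601069-181601318, plus strand), the member with the lowest value at 2 h. Capitals mark matches on either strand to CCAAT, the motif of the factor NFY, to GGGCGG, that of the SP family, and to TATAAA, the core promoter box.
Srsf2: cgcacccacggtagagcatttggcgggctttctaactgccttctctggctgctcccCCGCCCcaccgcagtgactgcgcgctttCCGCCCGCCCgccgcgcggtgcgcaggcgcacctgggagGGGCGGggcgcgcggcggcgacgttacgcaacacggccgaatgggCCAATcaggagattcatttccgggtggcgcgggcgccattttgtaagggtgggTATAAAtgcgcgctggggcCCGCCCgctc
Srsf3: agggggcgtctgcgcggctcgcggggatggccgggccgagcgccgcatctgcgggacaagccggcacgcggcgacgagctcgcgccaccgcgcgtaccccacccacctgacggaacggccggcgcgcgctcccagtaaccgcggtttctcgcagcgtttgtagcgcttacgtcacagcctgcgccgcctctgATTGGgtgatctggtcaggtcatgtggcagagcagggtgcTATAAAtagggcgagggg
Hnrnpk: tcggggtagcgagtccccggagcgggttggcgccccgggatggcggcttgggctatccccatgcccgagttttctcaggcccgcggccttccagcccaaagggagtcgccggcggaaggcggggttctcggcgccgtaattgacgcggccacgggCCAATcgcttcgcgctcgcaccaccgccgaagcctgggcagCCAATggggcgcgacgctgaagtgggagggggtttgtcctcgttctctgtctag
Hnrnpa2b1: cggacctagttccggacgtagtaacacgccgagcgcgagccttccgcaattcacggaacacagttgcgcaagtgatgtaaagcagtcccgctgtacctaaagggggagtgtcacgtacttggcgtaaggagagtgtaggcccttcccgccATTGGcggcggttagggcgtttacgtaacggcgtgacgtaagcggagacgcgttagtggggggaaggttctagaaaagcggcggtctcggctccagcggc
Prpf6: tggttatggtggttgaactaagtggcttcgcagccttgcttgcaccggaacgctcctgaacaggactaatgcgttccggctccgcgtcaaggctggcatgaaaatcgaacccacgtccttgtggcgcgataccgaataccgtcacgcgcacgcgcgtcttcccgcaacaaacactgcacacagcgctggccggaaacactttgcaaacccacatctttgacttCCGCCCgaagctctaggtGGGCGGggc

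Srsf2 and Srsf3 hold TATAAA at -29 and -18 from the start, and Srsf2 holds CCAAT at -82 and matches to GGGCGG at -194, -166, -162, -127 and -10, of which the ones at -166 and -162 overlap. Hnrnpk holds CCAAT at -95 and -54, Srsf3 at -58 and Hnrnpa2b1 at -100, and Prpf6 holds GGGCGG at -27 and -9. Over the whole windows, TATAAA was found in 5 of 42 members (Hnrnpab, Hnrnpm, Sf3b3, Srsf2 and Srsf3; 11.9%) and in 5.95% of 7935 windows of genes with a peak. CCAAT was found in 22 members (52.4%, against 38.9% of all windows), CCGGAAG (ETS) in 14 (33.3% against 20.3%), GGGCGG in 29 (69.0% against 67.5%) and CACGTG (E-box) in 7 (16.7% against 10.9%). CTCGCGAGA was found in 2 members (4.76% against 1.59%), GCGCATGCG (NRF1) in 2 (4.76% against 4.28%), AAGATGGC (YY1) in 2 (4.76% against 5.13%), TGANTCA (AP-1) in 1 (2.38% against 4.68%) and TGACGTCA (CRE) in 0 (3.45% of all windows). The median window had 27.5 CpG dinucleotides in members and 22 in all windows, with a median GC content of 61.3% in both. These matches describe letters in a window and were not tested.

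The value compared between libraries is the called length, the summed width in bp of the promoter peaks that the authors assigned to a gene. It is not divided by gene length and holds no read count. The libraries differ as a whole: they list 9074 to 10680 promoter peaks that cover 8.73 to 18.2 Mb, and each replicate 2 has a higher median pileup (82.5 to 122) than each replicate 1 (18 to 56). The pileup is not a whole number in 95.2% to 99.5% of the replicate 2 peaks and is whole in every replicate 1 peak, a difference for which the sources used here give no reason. Replicate 2 of 30 min covers the most DNA. Each library was therefore centred on its median gene, and a log2 change is a difference of centred log2(bp + 100), which understates changes of short peaks. The cells' label was checked against 12 T cell and Th1 markers, of which 11 had a peak in all 6 libraries (Cxcr3 in the replicates 2 of 30 min and 2 h only), while none of 5 B cell and 6 myeloid markers had a peak in any library. Of the CD8 markers Cd8b1 (replicates 2) and of the NK markers Eomes (replicate 2 of 2 h) had short peaks. Gata3 and Il4, of the other helper lineages, had peaks in 5 libraries each, and Il17a and Foxp3 had none. In such bulk samples fewer cells with a bound gene and less polymerase per cell cannot be told apart.

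Most of the 48 members had a promoter peak with or without restimulation. For members and for all genes counted here, a peak in at least 1 library was a condition of the choice, so part of this presence follows from it. Genes of the name rule with no peak under their own symbol, given below, are left out. An assigned peak was present in all 6 libraries for 44 of the 48 members, against 71.1% of the 10419 genes, and in 44 to 46 members per library. No member was listed in both libraries of a group while absent from both of another. Among all genes, peaks gained in this sense made up 0.374% (30 min against NR), 2.57% (2 h against NR) and 0.71% (2 h against 30 min), and peaks lost 0.365%, 0.662% and 0.096%. Among the families, hnRNPs had the longest called DNA, which sums all listed peaks assigned to a gene, also those away from its start. In NR cells the members' median stood at percentile 82.8 of the 7410 genes with a peak in all libraries, with hnRNPs at 90.2 (all 17 above the middle of the genes), SR proteins at 84.5, SF3A and SF3B subunits at 58.6 and PRPF proteins at 33.5. These percentiles are descriptions of called length, which was not divided by gene length.

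**Figure D1:**
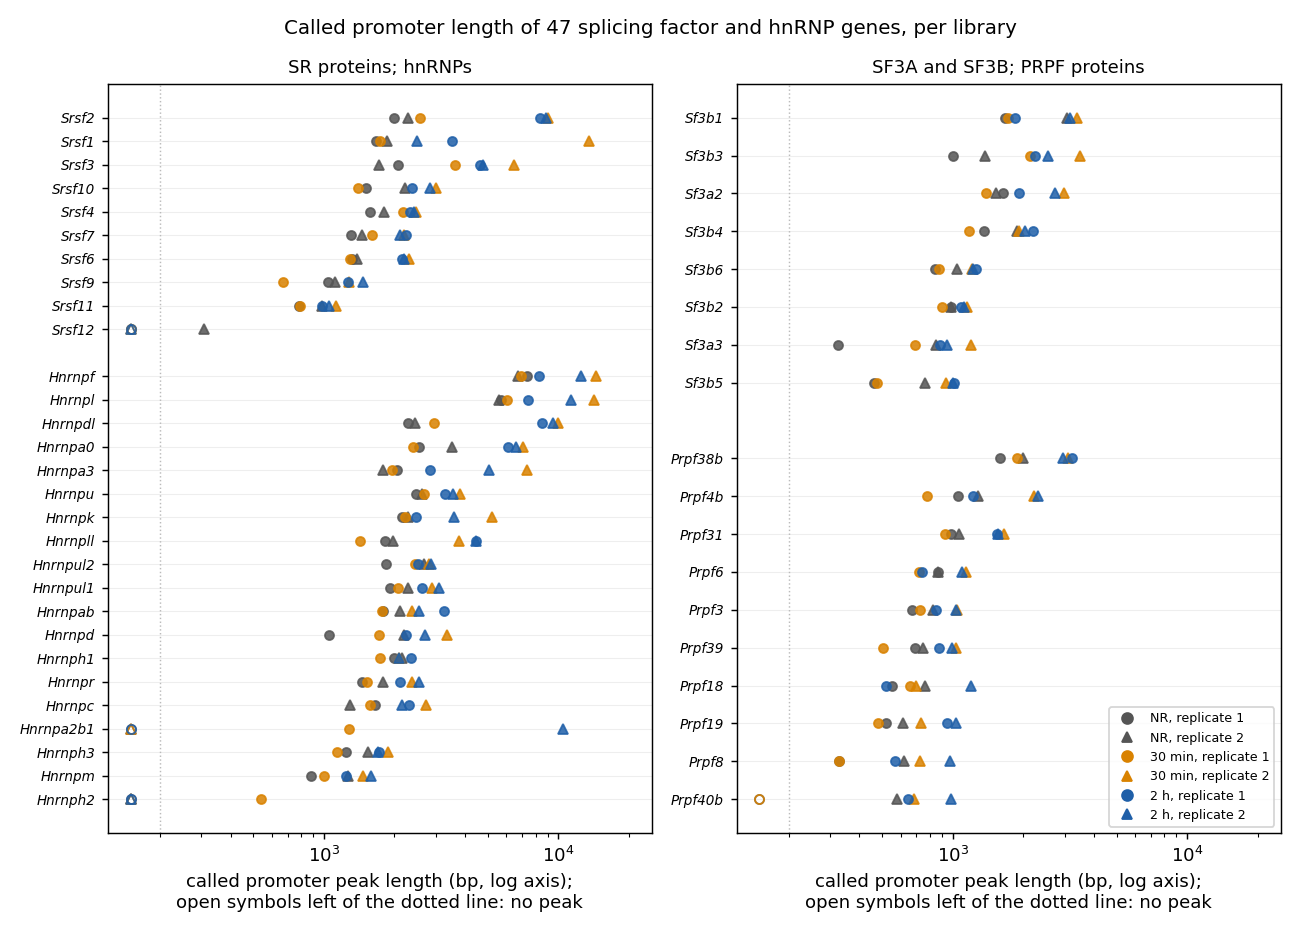
Called promoter length in bp (log axis) of 47 members in each of the 6 libraries, with colour for the group, symbol for the replicate and open symbols for no assigned peak. Hnrnpf and Hnrnpl lie farthest right, and Srsf2, Hnrnpdl and Hnrnpa0 have both 2 h libraries above both NR libraries.

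Among SR proteins, Srsf2 (gene 20382, chr11:116849897-116853675, minus strand), which encodes SC35, a founding SR protein that acts on exonic enhancers, had the highest 2 h value. Its called length was 1996 and 2282 bp in NR, 2581 and 9028 bp at 30 min, and 8353 and 8821 bp at 2 h. Both 2 h libraries and replicate 2 of 30 min are far above the NR libraries, and replicate 1 of 30 min lies close to them. The log2 change was 0.99 ± 0.34 (SE, 2 libraries a group) at 30 min (limma, adjusted p = 0.561) and 1.48 ± 0.34 at 2 h (adjusted p = 0.196), and neither passed the threshold of 0.05. The 2 h change was alike within the numbered pairs, at 1.49 for replicates 1 and 1.48 for replicates 2. The adjusted p depended on the 30 min libraries, which share only the estimate of spread: it was 0.0376 (limma) without both of them. In that fit 148 of 9622 genes passed as longer and 25 as shorter, against 37 and 6 of 9908 with all libraries. By position, DNA was counted from 1000 bp before to 1000 bp past the gene, whatever gene a peak was assigned to. Peaks running beyond were cut there, so Srsf2 had 5302 bp in replicate 2 of 30 min and 5309 and 5297 bp at 2 h. The 2 h change was then 0.80 (limma, adjusted p = 0.180). All values by position below have this limit.

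Srsf3 (gene 20383, chr17:29032660-29043372, plus strand) encodes the smallest SR protein, which also acts in RNA export. It had 2064 and 1716 bp in NR, 3640 and 6471 bp at 30 min, and 4625 and 4774 bp at 2 h, so all 4 restimulated libraries lie above both NR libraries. The log2 change was 1.16 ± 0.23 at 30 min (limma, adjusted p = 0.213) and 0.80 ± 0.23 at 2 h (adjusted p = 0.291). Srsf1 (gene 110809), the SR protein ASF/SF2, had 1674 and 1859 bp in NR, 1733 and 13442 bp at 30 min, and 3521 and 2498 bp at 2 h. Its 30 min value of 1.26 ± 0.69 (adjusted p = 0.711) rests on replicate 2 alone, and the change within replicates 1 was 0.12. Srsf7 (gene 225027), the SR protein 9G8, had 1303 and 1454 bp in NR, 1608 and 2201 bp at 30 min, and 2246 and 2112 bp at 2 h, with a 2 h change of 0.15 ± 0.20 (adjusted p = 0.768). The other SR genes had values near that of the median gene. Srsf4, Srsf6 and Srsf10 had 2 h values between -0.01 and 0.17, and Srsf9 and Srsf11 had -0.17 and -0.29. Srsf9 had the lowest value of all members at 30 min, -0.35 ± 0.16 (adjusted p = 0.688), from 1046 and 1113 bp in NR to 669 and 1283 bp. Srsf11 had 787 and 985 bp in NR and 983 and 1051 bp at 2 h. These lengths leave out the peak over its RefSeq start, which is assigned to the divergent gene Lrrc40 in all 6 libraries. By position the 2 h change of Srsf11 was -0.02. Srsf12, a protein that counters other SR proteins, had a peak in replicate 2 of NR only (309 bp).

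Among hnRNPs, Hnrnpf and Hnrnpl had the longest called DNA of all members. Hnrnpf (gene 98758), which binds runs of G in RNA, had 7338 and 6710 bp in NR, 6937 and 14467 bp at 30 min, and 8272 and 12527 bp at 2 h. Its peak at the start was only 1845 and 1393 bp wide in NR, 1347 and 3276 bp at 30 min, and 1411 and 3124 bp at 2 h. The greater part of the Hnrnpf length thus comes from other peaks assigned to the gene. Hnrnpl (gene 15388), the repressor of the variable CD45 exons, had 5687 and 5597 bp in NR, 6032 and 14147 bp at 30 min, and 7414 and 11330 bp at 2 h. In both genes replicate 2 of each restimulated group is well above its replicate 1, and the 2 h changes were 0.05 ± 0.32 and 0.21 ± 0.30 (limma, adjusted p = 0.951 and 0.785). With quantile normalization both changes had the other sign, -0.34 for Hnrnpf and -0.24 for Hnrnpl. Hnrnpdl (gene 50926, chr5:100033577-100039936, minus strand), a relative of the mRNA decay factor hnRNP D, had 2281 and 2448 bp in NR, 2949 and 9967 bp at 30 min, and 8486 and 9498 bp at 2 h. As in Srsf2, both 2 h libraries and replicate 2 of 30 min are far above NR. Its log2 change was 1.01 ± 0.33 at 30 min (adjusted p = 0.544) and 1.41 ± 0.33 at 2 h (adjusted p = 0.208). The 2 h adjusted p was 0.0452 in limma without both 30 min libraries, where the calls over all genes rose as given for Srsf2. By its widest peak alone, the 2 h change was 0.94.

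Hnrnpll (gene 72692, chr17:80029487-80062268, minus strand), which is known to switch CD45 splicing in activated T cells, had its higher value at the later time. It had 1829 and 1979 bp in NR, 1433 and 3772 bp at 30 min, and 4457 and 4469 bp at 2 h, with both 2 h libraries above the other 4. The log2 change was 0.71 ± 0.23 at 2 h against NR (limma, adjusted p = 0.324) and 0.59 ± 0.23 at 2 h against 30 min (adjusted p = 0.866). Hnrnpa0 (gene 77134), an hnRNP that binds AU-rich elements, had 2546 and 3536 bp in NR, 2410 and 7083 bp at 30 min, and 6079 and 6575 bp at 2 h, and its 2 h change was 0.57 ± 0.27 (adjusted p = 0.454). Hnrnpk (gene 15387), which binds C-rich RNA, had 2151 and 2281 bp in NR, 2223 and 5224 bp at 30 min, and 2480 and 3596 bp at 2 h, a 2 h change of -0.06 ± 0.21. Hnrnpu (gene 51810), the scaffold attachment factor, had 2470 and 2613 bp in NR, 2668 and 3793 bp at 30 min, and 3290 and 3555 bp at 2 h, and its changes were 0.15 at 30 min and -0.06 at 2 h. With peaks assigned by position rather than by the deposited gene name, Hnrnpu had 3199 and 12950 bp at 30 min and 4565 and 6173 bp at 2 h, with the NR values as before. Its changes were then 1.16 and 0.56 (limma, adjusted p = 0.550 and 0.587), so the value depends on which peaks are counted. Hnrnpa3 had 2056 and 1794 bp in NR, 1958 and 7371 bp at 30 min, and 2837 and 5038 bp at 2 h. Hnrnph1, a relative of hnRNP F, had 1987 and 2149 bp in NR, 1743 and 2089 bp at 30 min, and 2360 and 2086 bp at 2 h, which gave -0.27 ± 0.25 and -0.38 ± 0.25 (adjusted p = 0.789 and 0.562). The remaining hnRNPs with a peak in all libraries (Hnrnpab, Hnrnpc, Hnrnpd, Hnrnph3, Hnrnpm, Hnrnpr, Hnrnpul1 and Hnrnpul2) had 2 h changes from -0.21 to 0.18.

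The tables give a peak between divergent genes to 1 of them, which bears on Hnrnpa2b1 and several other members. Hnrnpa2b1 encodes hnRNP A2/B1, an abundant RNA-binding protein, and its RefSeq start lies 106 bp from that of Cbx3, which encodes a heterochromatin protein. The peak over the Hnrnpa2b1 promoter printed above is assigned to Cbx3 in all 6 libraries. It is 2834 and 2811 bp wide in NR, 3213 and 15769 bp at 30 min, and 5161 and 5333 bp at 2 h. Peaks under the symbol Hnrnpa2b1 exist in 2 libraries only, replicate 1 of 30 min (1277 bp) and replicate 2 of 2 h (10429 bp), at a start inside the gene. The largest log2 values of any member, 1.73 ± 2.47 at 30 min and 2.88 ± 2.47 at 2 h (limma, adjusted p = 0.882 and 0.648), come from these. By position the changes were 1.25 and 0.96. Hnrnph2 shares its promoter with Gla, 174 bp away, and its start-site peak is assigned to Gla in 5 libraries and to Hnrnph2 in replicate 1 of 30 min (541 bp). A further 5 protein-coding genes fit the name rule but have no peak under their own symbol, and all 5 had promoter peaks by position in all 6 libraries: Hnrnpa1 (given to Cbx5), Srsf5 (Gm20337), Prpf4 (Cdc26), Prpf38a (Orc1) and Sf3a1 (Ccdc157). Hnrnpa1, the antagonist of SR proteins in splice site choice, had 2150 and 2305 bp by position in NR, 2619 and 8679 bp at 30 min, and 4908 and 8756 bp at 2 h, a 2 h change of 1.05 ± 0.36 (adjusted p = 0.363). Srsf5, an SR protein close to SRSF4 and SRSF6, had 1382 and 1656 bp in NR, 2206 and 2513 bp at 30 min, and 2409 and 2178 bp at 2 h, a 2 h change of 0.10 ± 0.24 (adjusted p = 0.883). Of the 48 members, 14 have a divergent protein-coding start within 1000 bp either side, and the partner's part in their peaks was not tested. They include Hnrnpdl (Enoph1, gap -908 bp), Hnrnpll (4933407O12Rik, -46 bp) and Srsf7 (Gemin6, 135 bp), where a minus sign means a partner start inside the member. The summit of the Hnrnpdl start-site peak lay 1020 to 1073 bp past its RefSeq start.

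In the SF3A and SF3B complexes, Sf3b3 had the highest values. Sf3b3 (gene 101943, chr8:110810491-110846806, minus strand) encodes a scaffold subunit of SF3B. Its called length was 1000 and 1377 bp in NR, 2129 and 3496 bp at 30 min, and 2243 and 2561 bp at 2 h, with all restimulated libraries above both NR libraries. The log2 change was 0.99 ± 0.13 at 30 min (limma, adjusted p = 0.0720, the lowest of any member in any comparison) and 0.49 ± 0.13 at 2 h (adjusted p = 0.244). Its start overlaps the divergent gene Cog4, to which a second peak is assigned in 1 NR library, and counted by position the changes were 0.73 and 0.23. Sf3b1 (gene 81898), which contacts the branch point and is the target of SF3B inhibitors, had 1673 and 3074 bp in NR, 1723 and 3380 bp at 30 min, and 1853 and 3155 bp at 2 h. Its replicates differ more than its groups, and the 2 h change was -0.39 ± 0.25 (adjusted p = 0.561). Sf3b2 had 987 bp in both NR libraries, 900 and 1153 bp at 30 min, and 1081 and 1119 bp at 2 h (-0.33 ± 0.24 at 2 h, adjusted p = 0.591). Sf3b4 had 1366 and 1873 bp in NR, 1175 and 1921 bp at 30 min, and 2195 and 2034 bp at 2 h. The subunits Sf3a2, Sf3a3, Sf3b5 and Sf3b6 had 2 h changes from -0.10 to 0.20.

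Many PRPF genes had short peaks, and the changes were mostly near that of the median gene. Of the 10 with a peak in all libraries, 4 were above the middle of all genes in NR length, with Prpf38b at percentile 86.5. Prpf8 (gene 192159), the core of the U5 particle at the catalytic centre, had 328 and 623 bp in NR, 329 and 729 bp at 30 min, and 567 and 972 bp at 2 h, among the shortest of the members (2 h change 0.13 ± 0.32, limma, adjusted p = 0.885). Prpf19 (gene 28000), the ubiquitin ligase of the activating complex, had 521 and 614 bp in NR, 481 and 733 bp at 30 min, and 944 and 1030 bp at 2 h (0.23 ± 0.23, adjusted p = 0.689). Prpf6, a bridge within the tri-snRNP, had 870 and 869 bp in NR, 722 and 1143 bp at 30 min, and 737 and 1100 bp at 2 h, and its 2 h value of -0.43 ± 0.22 (adjusted p = 0.485) was the lowest of the members. Prpf40b, a partner of the U1 particle, had no peak in replicate 1 of NR and of 30 min. Its replicates 2 had 581 bp and 684 bp in those groups, and the 2 h libraries had 646 and 985 bp (1.31 ± 1.08, adjusted p = 0.638). Prpf39 had 691 and 748 bp in NR and 505 and 1029 bp at 30 min. Prpf3, Prpf4b, Prpf18, Prpf31 and Prpf38b had 2 h changes from -0.22 to 0.28.

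**Figure D2:**
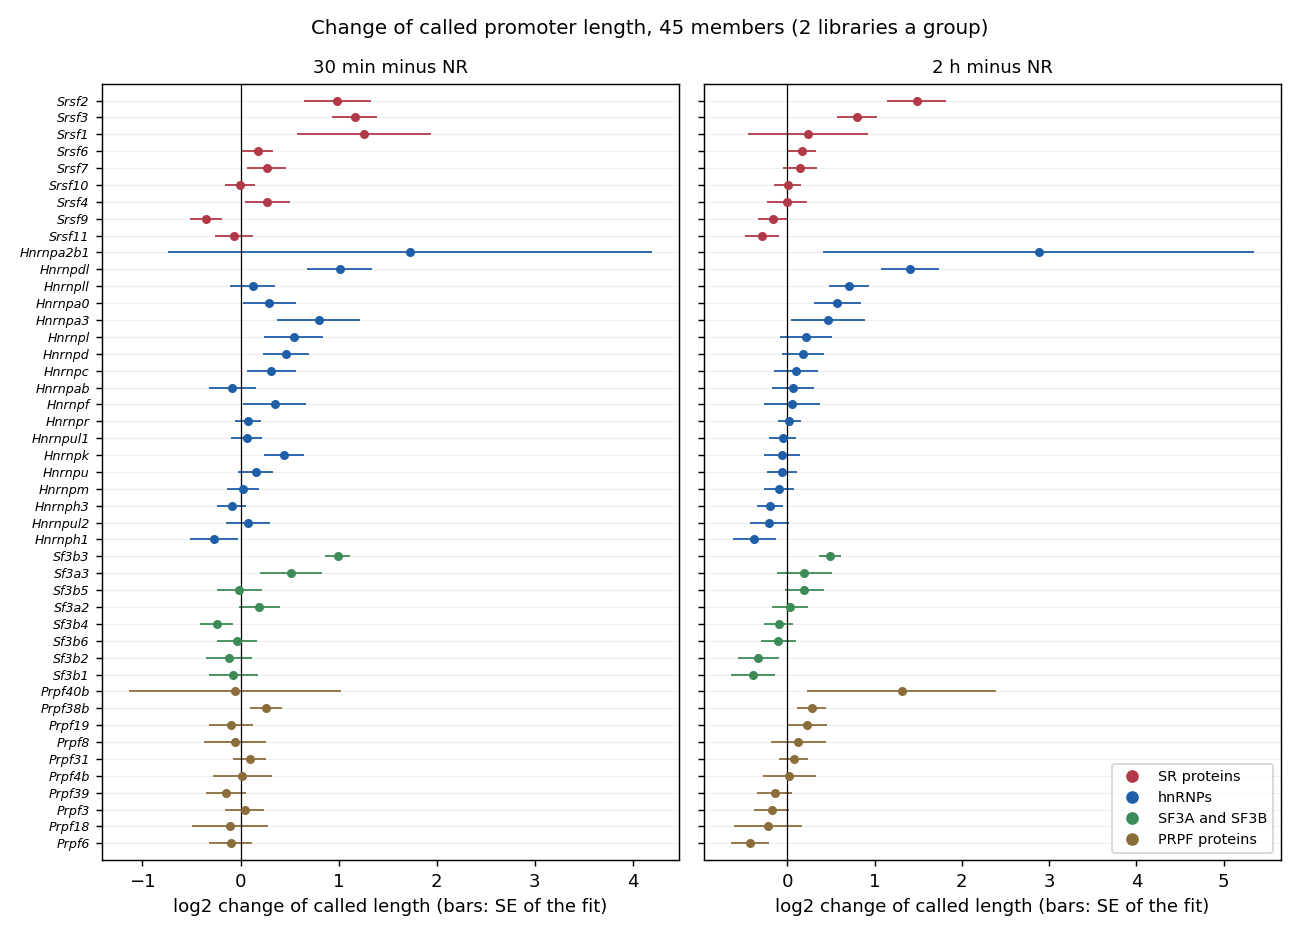
Log2 change of called promoter length (points) with its SE (bars) at 30 min and at 2 h against NR, for 45 of the members tested, ordered within each family by the 2 h value. Srsf2, Srsf3, Hnrnpdl and Sf3b3 lie right of 0 at both times, most others lie within 0.5 of 0, and the long bars of Hnrnpa2b1 and Prpf40b belong to genes without a peak in every library.

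Across the list, 46 members were tested and none passed limma's adjusted p under 0.05 in any comparison. Among the 9908 genes tested the share that passed was 0.242% (30 min against NR), 0.434% (2 h against NR) and 0% (2 h against 30 min). At an unadjusted p under 0.05, 4 members were longer at 30 min (5.85% of all genes), 5 at 2 h (7.95%) and 1 at 2 h against 30 min (2.26%). None was shorter at the first 2 comparisons (2.15% and 4.65% of genes) and 1 was at the last (2.92%). The median log2 change of the members was 0.07 at 30 min, 0.04 at 2 h and -0.11 at 2 h against 30 min, beside -0.04, -0.03 and -0.01 over all genes. Centred values of the groups did not overlap for 12 longer and 3 shorter members at 30 min (18.8% and 18.9% of all genes), 8 and 9 at 2 h (22.3% and 30.8%), and 5 and 9 at 2 h against 30 min (17.4% and 19%). By family the medians at 30 min and at 2 h were 0.27 and 0.15 for SR proteins, 0.22 and 0.06 for hnRNPs, -0.02 and -0.03 for SF3A and SF3B, and -0.06 and 0.02 for PRPF proteins. Without centring, the median of all genes was 0.12 at 30 min, 0.45 at 2 h and 0.30 between the times, and the members' medians of 0.23, 0.52 and 0.20 are to be read against it.

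At 2 h against 30 min the highest values were those of Prpf40b (1.37 ± 1.08), Hnrnpa2b1 (1.15 ± 2.47), Hnrnpll, Srsf2 (0.50 ± 0.34) and Hnrnpdl (0.40 ± 0.33). The lowest were Srsf1 (-1.02 ± 0.69), Hnrnpk (-0.50 ± 0.21), Sf3b3 (-0.50 ± 0.13, limma, adjusted p = 0.614), Srsf3 (-0.36 ± 0.23) and Hnrnpa3 (-0.33 ± 0.42). Without replicate 2 of 30 min, the library with the most called DNA, Srsf1 stood at 0.033 and Hnrnpa3 at 0.21, while Hnrnpk was at -0.30, Sf3b3 at -0.55 and Srsf3 at -0.35. Both comparisons with NR share the NR libraries, so their values are given side by side and not as separate support.

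Where the called DNA lies was read from the edges of the start-site peaks, a measure added after the called lengths were seen. An edge is given as its distance from the start that the tables most often give for the gene. For Srsf2 the upstream edge was at 990 to 1116 bp in all 6 libraries, while the downstream edge was at 879 and 1254 bp in NR, 1590 and 7923 bp at 30 min, and 7241 and 7721 bp at 2 h. In the last 3 of these the peak ran 4044 to 4726 bp past the annotated end of the gene. The DNA called in those libraries and not in NR lay on the transcribed side of the start and beyond the gene. The downstream edge of Srsf3 was at 843 and 613 bp in NR, 2656 and 5255 bp at 30 min, and 3394 and 3534 bp at 2 h, with its upstream edge at 983 to 1239 bp. Hnrnpll reached 1317 and 1439 bp downstream in NR, 1148 and 2938 bp at 30 min, and 3592 and 3688 bp at 2 h. Hnrnpa0, a gene of 2678 bp, reached 1281 and 1607 bp in NR, 1240 and 5005 bp at 30 min, and 4144 and 4579 bp at 2 h, past its end in the last 3. Hnrnpdl, measured from its RefSeq start, reached 1710 and 1956 bp in NR, 1763 and 9276 bp at 30 min, and 3539 and 8581 bp at 2 h, and its replicates 2 of 30 min and 2 h ran 2917 and 2222 bp past the gene's end. In Srsf1 only replicate 2 of 30 min ran far, to 12923 bp, against 1222 to 3022 bp in the other 5 libraries.

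**Figure D3:**
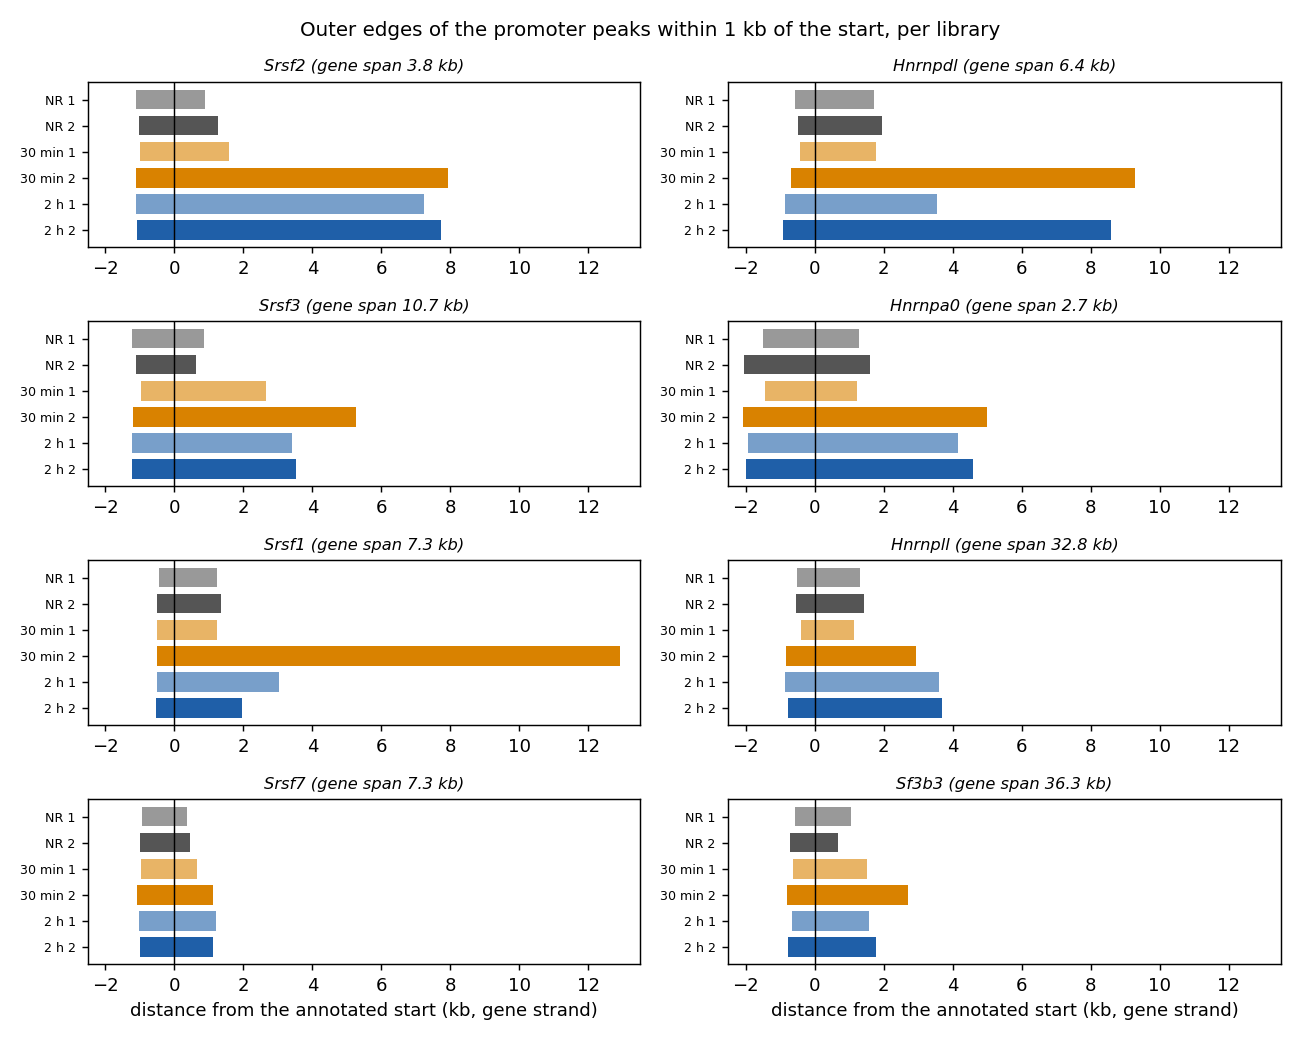
Outermost edges of the promoter peaks within 1 kb of the annotated start, in kb along the gene's strand, for 8 members chosen after their values were seen, with 1 bar per library (paler for replicate 1). Within each gene the left ends differ less than the right ends, and the right ends of Srsf2, Srsf3, Hnrnpa0 and Hnrnpll lie farther out in the 2 h libraries than in the NR libraries. For Sf3b3 the bar of NR replicate 1 includes a peak assigned to Cog4.

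Over the 43 members with an assigned start-site peak in all 6 libraries, the downstream edge lay farther out at 2 h than in NR with no overlap for 36 (83.7%), against 60.9% of 7388 genes. The upstream edge did so for 16 (37.2%, against 37.9% of genes). At 30 min the counts were 17 downstream (39.5%, against 19.2%) and 3 upstream (6.98%, against 11.3%). Between 30 min and 2 h they were 10 downstream (23.3%, against 23.4%) and 4 upstream (9.30%, against 14.8%). The median member's downstream edge lay 422.5 bp farther at 2 h and 300.0 bp farther at 30 min, and that of all genes 206 and 78 bp. A mean extension of over 1000 bp was seen in 7 members at each time, against 6.5% of genes at 30 min and 8.77% at 2 h, and in 3 members between the times (3.22% of genes). These bp are not centred and move with the depth and called DNA of the libraries, whose part in the result was not tested. Called lengths of members are also above those of most genes (median percentile 82.8 in NR), and genes of like length were not compared. In limma on the centred log2 reach, none of the 43 passed the adjusted threshold in any comparison. For the downstream edge 0.555% of genes passed at 30 min, 0.893% at 2 h and 0% between the times, and for the upstream edge 0.0677%, 0.271% and 0%. At an unadjusted p under 0.05 the downstream edge was farther for 7, 8 and 0 members (6.27%, 8.8% and 3.02% of genes), and the upstream edge for 1, 0 and 0 (3.71%, 5.86% and 1.89%). By the same p the downstream edge was nearer for 1, 1 and 3 members (4.4%, 11.7% and 3.86% of genes), and the upstream edge for 1, 1 and 1 (1.65%, 2.5% and 1.83%). The lowest adjusted p-values were 0.0564 for Sf3b3 and 0.0592 for Srsf3 at 30 min, with changes of 1.50 ± 0.23 and 1.98 ± 0.31, and 0.0874 for Srsf3 and 0.115 for Srsf2 at 2 h, with 1.52 ± 0.31 and 2.12 ± 0.47. For Sf3b3 this fit took NR edges of 414 and 674 bp and 30 min edges of 1509 and 2696 bp. With the peak assigned to Cog4, the edge in replicate 1 of NR was at 1039 bp, and the fit with that edge was not run. The median centred downstream change was 0.16 at 30 min and 0.10 at 2 h in members and -0.10 and -0.18 in all genes. Upstream it was -0.03 and -0.14 in members, and -0.02 and -0.06 in all genes.

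The full summit lists, which are not limited to promoters, hold summits inside the members' genes. Between 1000 bp past the start and the gene's end there were 20 and 18 summits in NR, 30 and 38 at 30 min, and 45 and 40 at 2 h, over 47 members with room for them. They lay in 11 to 13 genes in NR, 15 and 20 at 30 min, and 22 and 20 at 2 h. Hnrnpf (4 to 8 in every library), Hnrnpl (1 to 8) and Hnrnpu (1 in each NR library, 3 to 5 in the others) held the most, while Prpf6, Prpf8, Sf3b3 and Hnrnpm held none in any library. A wide peak can have a single summit, as in Srsf2 at 2 h, so summits and called length are separate readings. The lists differ in length (15330 to 23299 summits), and the counts were not tested. Counts of this kind over all genes were not worked out, so the differences between groups are not read as a result about the members.

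Fold enrichment, the authors' value for each peak in its own list, put the medians of SR proteins and of hnRNPs above those of the SF3 subunits and PRPF proteins in every library. Within each library the members' median percentile among the 7410 genes was 77.2 to 83.6. SR proteins had medians of 82.5 to 95.6, hnRNPs 82.5 to 93.3, SF3A and SF3B subunits 59.0 to 77.6 and PRPF proteins 42.3 to 56.5. Hnrnpab, an hnRNP of the D group, was at percentile 99.4 to 99.7 in every library, Hnrnpu at 94.2 to 99.7, Srsf6 at 95.0 to 98.1 and Srsf3 at 90.4 to 99.5. Low in every library were Prpf8 (0.40 to 31.0), Sf3a3 (1.09 to 20.1) and Srsf9 (11.6 to 42.5). Hnrnpul1 was at 5.03 to 28.0 in all but replicate 2 of NR, where it was at 75.4. No change is read from these ranks.

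**Figure D4:**
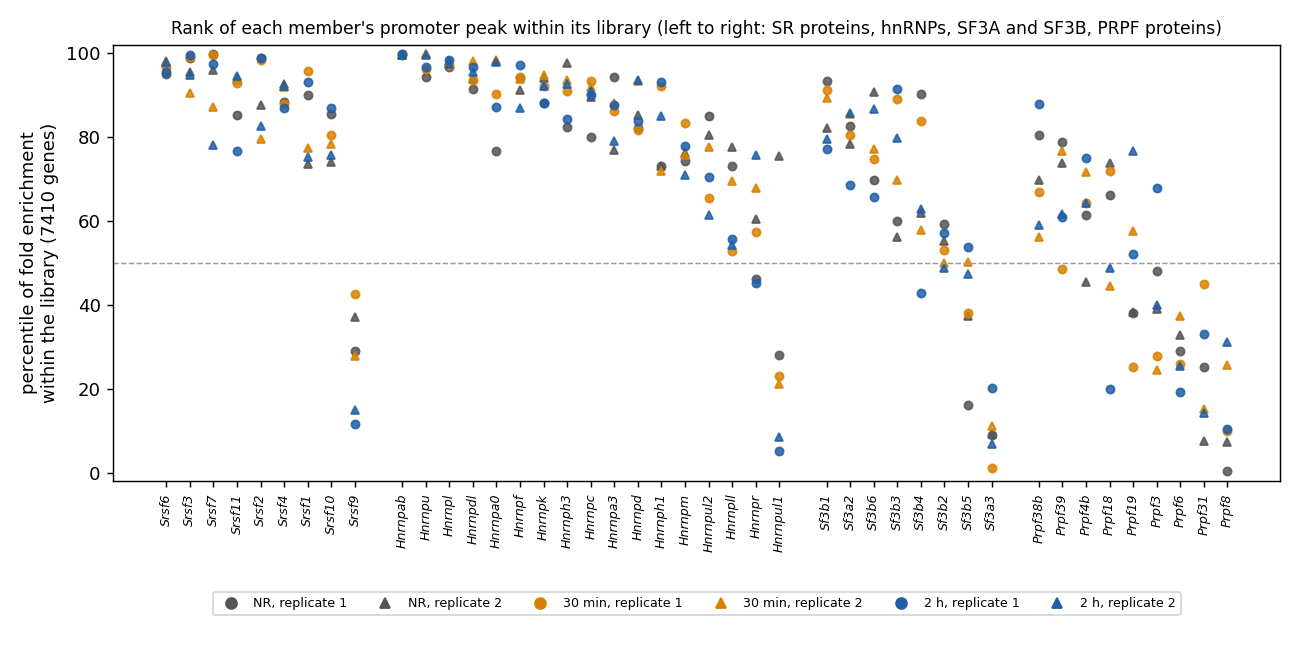
Percentile of each member's highest fold enrichment among the 7410 genes with a promoter peak in all 6 libraries (vertical axis) for 43 members ordered within family, with colour for the group and symbol for the replicate. Most SR proteins and hnRNPs lie above the dashed line at percentile 50 in every library, and the PRPF proteins lie on both sides of it.

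Further lists of genes of the splicing pathway were set beside all genes, of which 0.242% (30 min against NR), 0.434% (2 h against NR) and 0% (2 h against 30 min) passed. At such shares, 0 calls in lists this short are not read as a result about the pathway. Of 28 core snRNP protein genes with a peak, which form the particles' rings and specific subunits, 0 passed limma's adjusted threshold in any comparison, with medians of -0.02 at 30 min and -0.09 at 2 h. Of 17 activation and catalytic step factors 16 were tested and 0 passed (medians -0.0013 and 0.22). The 10 exon junction complex and coactivator genes had 0 calls and medians of 0.28 and 0.27, with positive values in 10 of 10 at 30 min and 9 of 10 at 2 h, where 45.4% and 47.2% of all genes were positive. Of 31 other splicing regulators 30 were tested and 0 passed (medians 0.13 and 0.06). The 6 SR protein kinase genes, whose products phosphorylate SR proteins, had 0 calls and medians of 0.30 and -0.03, with a lowest adjusted p of 0.0714 at 30 min. At 2 h against 30 min, each of these lists had 0 calls too, with medians of 0.09, -0.15, -0.18, -0.15 and -0.23 in the order given.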

How the data were processed

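The 6 deposited promoter tables and summit lists were made per library by the authors. The submitters' processing notes name BWA 0.7.13, Picard 1.119, MACS2 2.1.0 and mm10, and the tool that assigned peaks to genes was not given in the sources used here. Per the file headers, each deposited peak has a width in bp, a pileup (signal), a fold enrichment (ratio) and −log10 p and q values, and no read count.

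Peak widths were summed per gene symbol and library, log2(bp + 100) was centred on the median of the 7410 genes with a peak in all 6 libraries, and the 9908 genes listed in 2 or more libraries were fitted with limma 3.58.1 in R 4.3.3 (trend, group only, all 6 libraries, Benjamini-Hochberg). The fit was run on simulated lengths with independent noise and changes larger than that of any member with a peak in all libraries. That run does not show the power or error of the fit at the sizes reported here. Deviations of libraries with the same replicate number from their group means correlated at 0.44, 0.27 and 0.41 over genes in the pairs of groups. Libraries of the same number thus deviate alike, and they also share the level and form of the pileups. Whether the numbers pair cultures or animals is not stated in the labels and was not tested.

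Given with their values are, per comparison, the 5 members highest and the 5 lowest, those lacking a peak in a library, the 5 widest, the 5 narrowest and a set of well-known members. The members, lists and rules were chosen with earlier results of these data known. Peak edges were added after the values were seen. The values of 1 PRPF gene and 1 marker are not reported here, though the counts and medians include them. Alternatives were other pseudocounts, centring, filters, peak thresholds, assignment by position, a replicate block and leaving out libraries.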

Additional observations from a re-analysis of the deposited data

How the results depend on the processing

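No member passed the adjusted threshold of limma at 30 min against NR or at 2 h against 30 min under any alternative run. At 2 h against NR the count was 2 with only the 4 libraries of the comparison (Srsf2 and Hnrnpdl). In that fit 148 of 9622 genes were longer and 25 shorter, against 37 and 6 of 9908 in the main fit. The count was 0 under every other alternative that kept 2 libraries in each group. For this comparison, calls without 1 library, which leave 1 in a group, are not given. With the replicate number as a block, 0 members were called in each comparison. Over all genes the block took the calls from 23 longer and 1 shorter to 18 and 1 at 30 min, and from 37 and 6 to 28 and 5 at 2 h. The members' median was 0.23, 0.52 and 0.20 without centring and -0.046, -0.063 and -0.066 with quantile normalization (30 min against NR, 2 h against NR, 2 h against 30 min), and leaving out 1 library gave 0.026 to 0.17, -0.015 to 0.058 and -0.16 to -0.008. The fit on peak edges, added after the values were seen, called 0 members.

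Of the 46 members tested, 31 (30 min against NR), 34 (2 h against NR) and 35 (2 h against 30 min) changed sign under at least 1 alternative, the centring included. Among the 5 highest and 5 lowest members of each comparison, those that did so were, at 30 min, Sf3b4 (0.12 by position), Prpf39 (0.013) and Sf3b2 (0.042) without centring, and Sf3b2 without replicate 1 of NR or replicate 2 of 30 min (leaving out 1 library gave -0.34 to 0.11). At 2 h, Prpf6 (0.048), Sf3b1 (0.088), Hnrnph1 (0.098), Sf3b2 (0.14) and Srsf11 (0.19) did so without centring. At 2 h against 30 min, Hnrnpa2b1 was -0.29 by position. Other members with another sign by position included Srsf10 (0.56 at 30 min, -0.50 at 2 h against 30 min), Hnrnpu (0.56 at 2 h), Hnrnpr (-0.032 at 2 h), Sf3b4 (-0.24) and Prpf38b (-0.089, both at 2 h against 30 min). Leaving out 1 library gave -1.13 to 4.39 for Hnrnpa2b1, -2.06 to 0.033 for Srsf1 and -0.86 to 0.21 for Hnrnpa3, each with its other sign without replicate 2 of 30 min, and -0.069 to 0.86 for Hnrnpdl, negative without replicate 1 of 30 min. Other than the shift of all genes without centring and the libraries left out, the cause was not tested.

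Members listed in all libraries of a group while absent from all of another numbered 1 at 2 h against NR with −log10 q of at least 10. With lists of equal length there was 1 there and 1 at 2 h against 30 min. Leaving out a library, which leaves 1 in its group, gave 0 to 2, 0 to 1 and 0 to 2. The shares over all genes under these alternatives were not worked out, and the counts are not read as a result about the members. The median fold enrichment percentile, averaged over the libraries of a group, was 82.2 in NR and 83.6 at 2 h among all genes of each library, against 79.3 and 79.7. Counting body summits from 2000 bp past the start gave means of 12.5, 28.0 and 37.5 per library in NR, at 30 min and at 2 h, against 19.0, 34.0 and 42.5. With 2 libraries a group of unequal depth, called lengths measure depth together with occupancy.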
